A study of Homo sapiens with 8 samples.

Results

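Transcripts of 10 chemokines and inflammatory cytokines were followed in Panc10.05 pancreatic cancer cells that had or had not become resistant to indisulam. The members were chosen by name: CXCL1, CXCL2, CXCL3, CXCL5 and CXCL8, which attract neutrophils, CCL20, which attracts lymphocytes and dendritic cells, the interleukin-1 genes IL1A and IL1B, and IL6 and LIF of the interleukin-6 family. They are 10 of the 60675 genes in the count tables, and all 10 were among the 16661 genes with enough reads to be tested.

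Panc10.05 is an established human pancreatic adenocarcinoma cell line. Indisulam is a sulfonamide that acts as a molecular glue between the splicing factor RBM39 and the DCAF15 ubiquitin ligase, which leads to degradation of RBM39. RNA sequencing libraries were made from polyadenylated RNA of 4 groups, with 2 libraries in each. Parental untreated cells received no drug, and parental indisulam cells were exposed to 2 µM for 18 h. Resistant cells were a line adapted by months of culture in rising doses, so each difference between the lines rests on 1 adapted line. The resistant indisulam group was kept on 2 µM continuously, and the resistant untreated group had been off the drug for a week. With and without drug thus means a short exposure against none in parental cells, and uninterrupted culture on the drug against a week off it in resistant cells. The growth and treatment notes in the labels name A549 cells, but the sample titles name Panc10.05 and were followed. The study describes the libraries of a group as technical replicates, so each p-value below concerns the spread between libraries and not between independently derived lines.

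Chemokines are small secreted proteins that direct the migration of leukocytes through G protein-coupled receptors. CXCL1, CXCL2, CXCL3, CXCL5 and CXCL8 share a glutamate-leucine-arginine motif and act mainly on CXCR2, and CXCL8 acts on CXCR1 as well. Interleukin-1 is a classical inducer of these chemokines and of IL6 through NF-κB (a family of dimeric transcription factors held inactive by IκB proteins), and pancreatic carcinoma cells are known to secrete several of them. Transcripts of many of these genes are short-lived and are regulated by AU-rich elements as well as by transcription.

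The 5 CXC chemokine members lie in a single cluster on chromosome 4 (GRCh38), which spans 358.7 kb from the start of CXCL8 to the end of CXCL2. That stretch holds 9 protein-coding genes. The other 4 of them, CXCL6, PF4V1, PF4 and PPBP, had 0 reads in every library. IL1A and IL1B lie 45.3 kb apart on chromosome 2, which also carries CCL20 at another place. The genes lie at chr2:112773925-112784493 (IL1A) and chr2:112829751-112836816 (IL1B), both on the minus strand, and at chr2:227805739-227817564 (CCL20) on the plus strand. IL6 is at chr7:22725884-22732002 on the plus strand and LIF at chr22:30240453-30246759 on the minus strand.

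RefSeq promoters (GRCh38.p14, 250 bases before to 50 after the start) were at hand for 9 of the 10 members, LIF being the exception. A consensus site for NF-κB (the κB consensus, searched on both strands) was found in those of CXCL1, CXCL2, CXCL3, CXCL5, CCL20 and IL6, and 10.8% of 27305 promoters hold one. The stretches with these matches are shown because the members that follow are described together, with the match in capitals and each written 5′ to 3′ on the strand of its gene. They cover bases −150 to −51 from the RefSeq start, or 30 bases around the match in CXCL3, CXCL5 and IL6, where an annotated exon lies in the longer stretch. For CXCL8, which holds no match to the consensus, the capitals mark GGAATTTCC, 9 bases that also lie inside the consensus matches of CXCL1, CXCL2, CXCL3 and CXCL5. That 9-base search was added after the promoters had been read.
CXCL1 (chr4:73869243-73869342, plus strand): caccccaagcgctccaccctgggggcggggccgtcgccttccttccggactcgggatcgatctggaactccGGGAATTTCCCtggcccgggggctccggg
CXCL2 (chr4:74099246-74099345, minus strand): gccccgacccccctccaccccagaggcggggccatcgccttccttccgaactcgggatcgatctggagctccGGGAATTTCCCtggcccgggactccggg
CXCL3 (chr4:74038749-74038778, minus strand): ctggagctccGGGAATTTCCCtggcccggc
CXCL5 (chr4:73998749-73998778, minus strand): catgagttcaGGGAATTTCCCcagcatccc
CXCL8 (chr4:73740419-73740518, plus strand): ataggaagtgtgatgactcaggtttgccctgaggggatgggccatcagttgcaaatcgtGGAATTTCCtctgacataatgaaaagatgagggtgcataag
CCL20 (chr2:227813692-227813791, plus strand): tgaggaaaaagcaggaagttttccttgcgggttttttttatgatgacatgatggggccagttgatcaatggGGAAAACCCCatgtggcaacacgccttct
IL6 (chr7:22727117-22727146, plus strand): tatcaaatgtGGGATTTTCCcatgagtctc
The consensus match began 79 bases before the start in CXCL1 and CXCL3, 78 in CXCL2 and 91 in CXCL5, and the 9-base match in CXCL8 began 91 bases before it. Of all promoters, 0.5% hold GGAATTTCC on either strand. The 150 bases before the start were 88.7% identical in CXCL1 and CXCL2, 88.1% in CXCL1 and CXCL3, and 86.1% in CXCL2 and CXCL3. CXCL5 matched each of these 3 at 48.8% to 50.6%, and CXCL8 matched the other 4 at 41.4% to 46.9%. Other motifs were spread differently. The AP-1 letters TGANTCA stood in CXCL8 and IL1A (7.8% of all promoters), the C/EBP letters TTGCNNAA in CXCL2, IL1B and IL6 (10.6%), and the TATA box letters TATAAA in CXCL8, CCL20 and IL1A (12.0%), all searched on both strands. TATAAA began at base −31 in CXCL8 and −29 in CCL20, but at −239 from a RefSeq start of IL1A. IL1A was searched at more than a single start, while the shares count a single promoter per gene. A match is a run of letters and was not tested as a binding site.

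The libraries held 65266253 to 108002436 reads in genes. Values are read counts relative to library size (CPM, scaled by the trimmed mean of M values, TMM), and a gene was called changed at a Benjamini-Hochberg adjusted p under 0.05 in edgeR's quasi-likelihood test over all 16661 genes. All 7 epithelial markers had reads, with summed levels of 6610 to 6880 CPM in parental and 11100 to 12600 CPM in resistant libraries. Of the leukocyte markers, PTPRC, CD3E and S100A8 had 0 reads in all libraries, and the summed level lay between 3.54 and 6.21 CPM, mostly CSF1R. Fibroblast markers summed to 1.35 to 1.91 CPM in 3 groups and to 3.98 to 4.06 CPM in resistant indisulam cells, mostly COL1A1, with DCN and LUM at 0. Endothelial markers stayed between 0.181 and 0.341 CPM. The marker sums thus moved with the groups, and their part in the results was not tested. In bulk RNA, a smaller number of expressing cells and less RNA per cell cannot be told apart.

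LIF, which signals through LIFR and gp130 and acts on tumour and stromal cells, was by far the most abundant member. It stood at 57.4 and 59.0 CPM in the untreated parental pair, 57.3 and 54.6 in the treated parental pair, 158 and 163 in the untreated resistant pair and 126 and 127 in the treated resistant pair. Every resistant library lay above every parental one, and the drug-treated resistant pair lay below the untreated pair. LIF made up 80.8% to 86.9% of the summed CPM of the 10 members in each library. Per kilobase of exon it ranked highest in all 4 groups, at 15.0 CPM per kb in parental untreated and 41.4 in resistant untreated cells. The order below it changed between groups. In parental untreated cells CXCL2 (1.79 CPM per kb), CXCL5 (1.4), CXCL8 (0.706), CXCL1 (0.498) and CXCL3 (0.196) followed with libraries that did not overlap. In resistant indisulam cells CXCL5 (3.7) and CXCL8 (3.68) overlapped, and CXCL2 (3.53) and CXCL1 (1.83) came next. IL1B, IL6, IL1A and CCL20 stood at 0.0203 CPM per kb or less in parental untreated cells and at 0.235 to 0.37 in resistant indisulam cells.

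**Figure D1:**
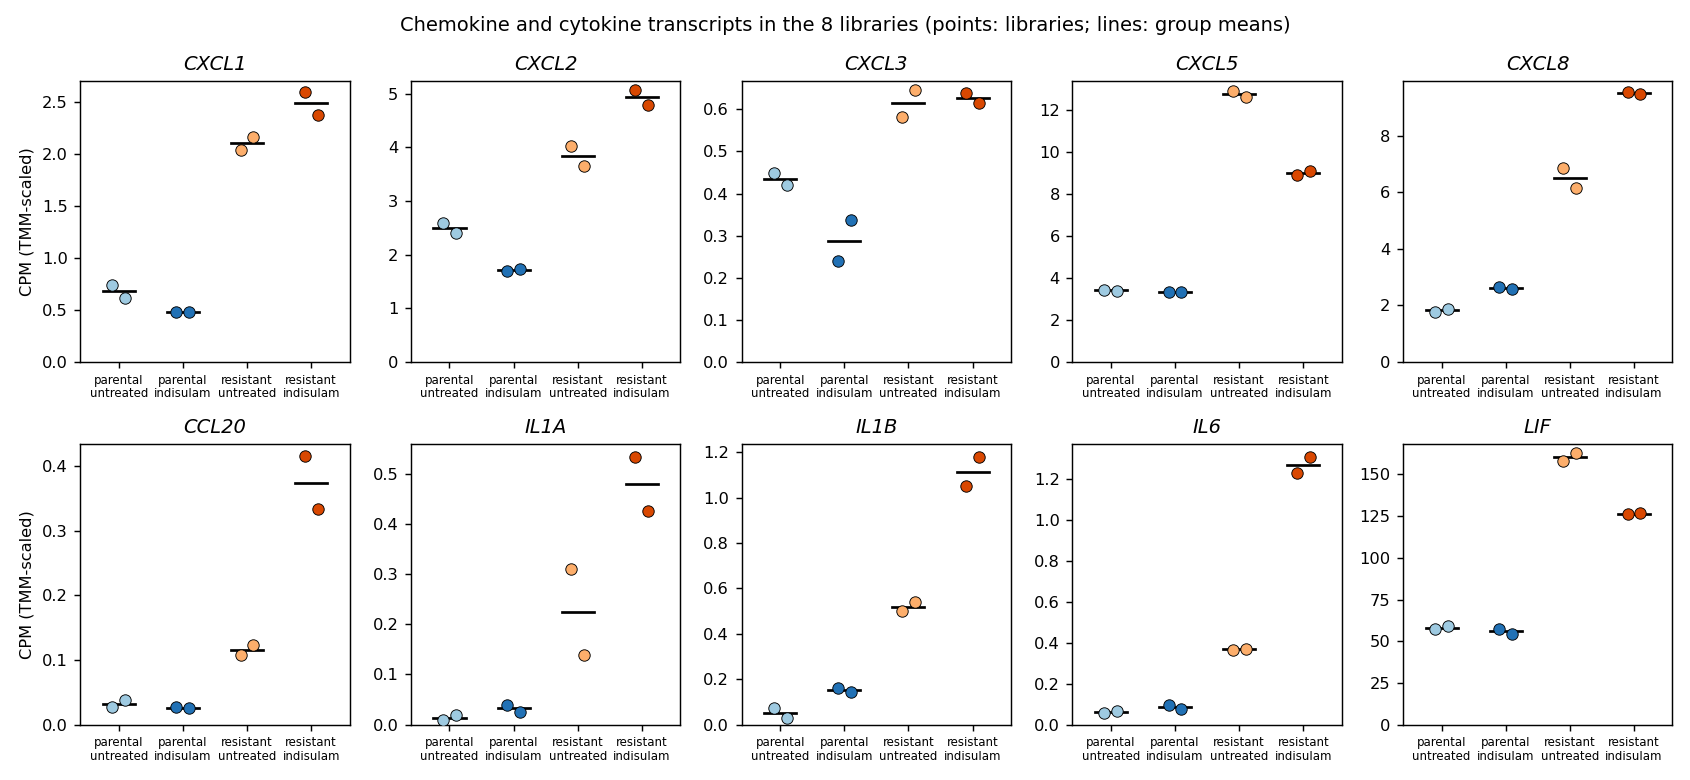
TMM-scaled CPM (linear axis from 0, a separate scale for each gene) of the 10 members in each of the 8 libraries, with points for libraries and a line for the mean of a group. In every panel both resistant groups lie above both parental groups, and LIF runs from 54.6 to 163 CPM while CCL20 stays under 0.42 CPM.

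The neutrophil-attracting chemokines were higher in resistant than in parental cells, with and without drug. CXCL1 was at 0.74 and 0.618 CPM in the untreated parental pair, 0.48 and 0.478 in the treated parental pair, 2.04 and 2.17 in the untreated resistant pair and 2.6 and 2.38 in the treated resistant pair. The lines did not overlap, and the difference was 1.63 log2 units off the drug (SE 0.146, adjusted p = 8.6e-10) and 2.37 on it (SE 0.161, adjusted p = 4.3e-12).

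CXCL2, a close paralog of CXCL1, was at 2.6 and 2.4 CPM in the untreated parental pair, 1.69 and 1.73 in the treated parental pair, 4.02 and 3.65 in the untreated resistant pair and 5.07 and 4.8 in the treated resistant pair. The resistant level exceeded the parental one by 0.62 log2 units off the drug (SE 0.0973, adjusted p = 6.7e-06) and 1.52 on it (SE 0.104, adjusted p = 4.8e-12). The parental level was at its lowest on the drug and the resistant level at its highest.

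CXCL3 was the lowest of the 5, at 0.448 and 0.421 CPM in the untreated parental pair, 0.24 and 0.336 in the treated parental pair, 0.581 and 0.647 in the untreated resistant pair and 0.638 and 0.614 in the treated resistant pair. These levels rest on 18 to 59 reads per library. The difference between lines off the drug, 0.49 log2 units (SE 0.21), passed the threshold narrowly (adjusted p = 0.048) and lost its call in 12 of 16 alternative settings. On the drug it was 1.11 (SE 0.239, adjusted p = 0.00026). Reads of CXCL2 and CXCL3 can be hard to tell apart in part: 5.3% of the 100-base words of CXCL2 transcripts and 3.3% of those of CXCL3 occur in the other.

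CXCL5, which epithelial cells secrete and which also binds CXCR2, was at 3.43 and 3.4 CPM in the untreated parental pair, 3.33 and 3.34 in the treated parental pair, 12.9 and 12.6 in the untreated resistant pair and 8.91 and 9.1 in the treated resistant pair. The treated resistant pair lay between the parental libraries and the untreated resistant pair, and the lines differed by 1.90 log2 units off the drug (SE 0.065, adjusted p = 9.9e-18) and 1.43 on it (SE 0.0717, adjusted p = 1.4e-14). CXCL8, known as interleukin-8, was at 1.77 and 1.88 CPM in the untreated parental pair, 2.65 and 2.57 in the treated parental pair, 6.87 and 6.14 in the untreated resistant pair and 9.55 and 9.48 in the treated resistant pair. Its 4 groups were all apart, and the lines differed by 1.84 log2 units off the drug (SE 0.0888, adjusted p = 8.6e-15) and 1.86 on it (SE 0.0835, adjusted p = 1.7e-15).

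As a list, 5 of the 5 CXC chemokines were called higher in resistant cells off the drug, where 30.3% of all genes were. On the drug 5 of 5 were, where 34.6% of all genes were. The members were chosen with earlier results of these data known, so these counts describe the list and are not a test of it. The call of CXCL3 off the drug held in 4 of 16 alternative settings. Their median difference was 1.63 log2 units off the drug and 1.52 on it, beside −0.015 and 0.003 over all genes tested. Of all genes, 6.93% were called higher by over 1 log2 unit off the drug and 12.4% on it. CXCL1, CXCL5 and CXCL8 passed that size off the drug, and all 5 did on it. All 5 were over the filter's level of 0.127 CPM in every group. On the CXCL2 side, the protein-coding gene next to the cluster, MTHFD2L, went the other way (−0.35 without drug, adjusted p = 3.8e-05, and −0.41 with drug, adjusted p = 1.7e-06). EREG, further out on that side, was at 0.93 and 0.8 and was not called (adjusted p = 0.095 and 0.11). Genes beyond CXCL8 on the other side were not looked at.

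**Figure D2:**
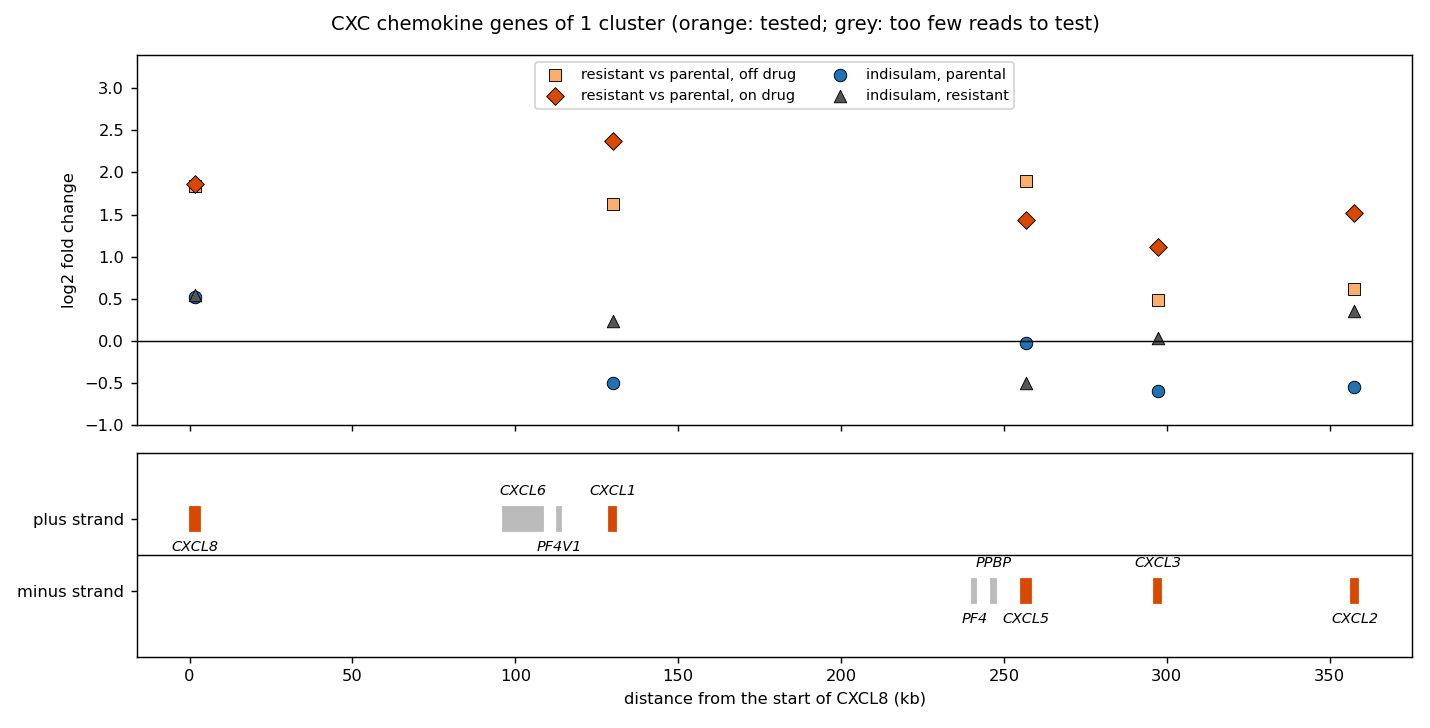
Log2 fold changes of the tested genes of the CXC chemokine cluster (upper panel) against distance in kb from the start of CXCL8, with the genes drawn to scale on their strands (lower panel, grey for genes with 0 reads). The 5 tested genes are all higher in resistant cells off and on the drug, from 0.49 to 2.37 log2 units, while CXCL6, PF4V1, PF4 and PPBP had no reads.

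The summed level of the 5 CXC chemokines was 8.4 to 8.99 CPM in parental and 25.2 to 26.8 CPM in resistant libraries, with little movement by drug within a line. Its makeup did move with the drug. CXCL8 made up 19.7% and 21.6% of the sum in the untreated parental pair, 31.6% and 30.4% in the treated parental pair, 26.0% and 24.4% in the untreated resistant pair and 35.7% and 35.9% in the treated resistant pair. The share of CXCL8 was thus higher with drug in both lines. CXCL5 held 38.1% to 39.7% in parental libraries, 48.9% and 50.0% in the untreated and 33.3% and 34.5% in the treated resistant pair. CXCL2 made up 29.0% and 27.5% of the sum in the untreated and 20.2% and 20.5% in the treated parental pair, and it stood at 14.5% to 18.9% in resistant ones. These shares are descriptions and were not tested.

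**Figure D3:**
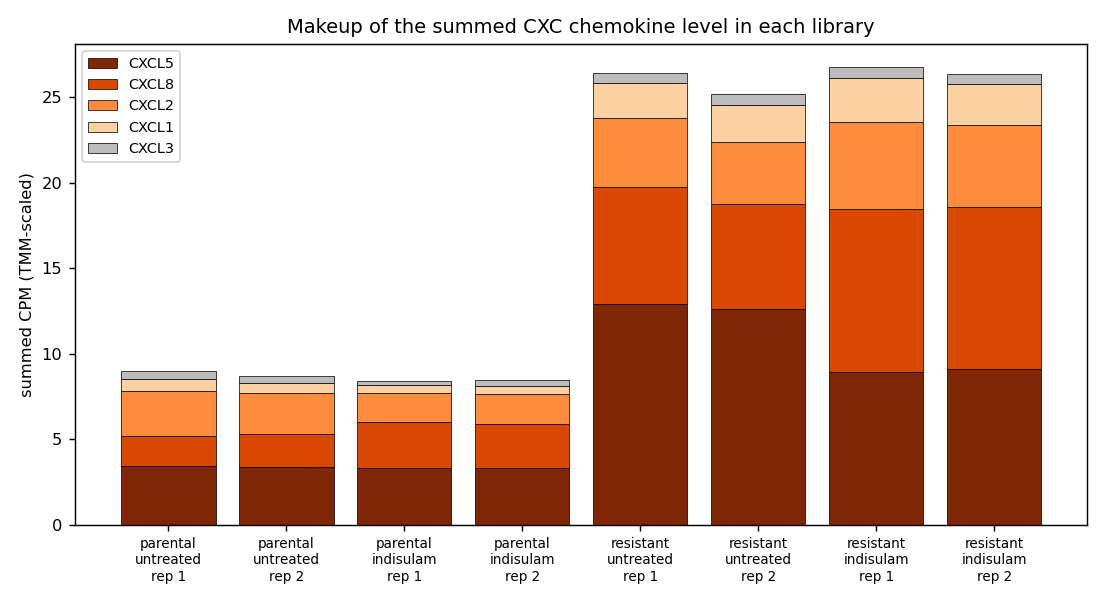
Stacked TMM-scaled CPM of CXCL5, CXCL8, CXCL2, CXCL1 and CXCL3 in each of the 8 libraries, 1 bar per library from 0. The parental bars reach 8.4 to 8.99 CPM and the resistant bars 25.2 to 26.8 CPM, and the CXCL8 segment is a larger share of the bar with indisulam in both lines.

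CCL20, the ligand of CCR6, was close to the limit of detection in parental cells, with 3 and 4 reads in untreated and 2 and 2 in indisulam libraries. Resistant untreated libraries had 8 and 8 reads and resistant indisulam libraries 28 and 32, or 0.415 and 0.333 CPM. The ratio of read rates between lines was 3.56 off the drug (exact 95% interval 1.38 to 10.2) and 14.0 on it (5.18 to 53.0), intervals that cover counting error only.

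The products of IL1A and IL1B act on the IL1R1 receptor. IL1A had 1 and 2 reads in the untreated parental pair, 3 and 2 in the treated parental pair, 23 and 9 in the untreated resistant pair and 36 and 41 in the treated resistant pair. The resistant untreated pair was uneven (0.311 and 0.139 CPM), but both lay above all parental libraries. The ratio between lines was 16.6 off the drug (exact 95% interval 5.19 to 84.7) and 14.3 on it (5.89 to 45.4). The fitted difference off the drug was 3.91 log2 units, and 3.19 without resistant untreated replicate 1.

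IL1B was at 0.0731 and 0.0281 CPM in the untreated parental pair, 0.16 and 0.142 in the treated parental pair, 0.5 and 0.539 in the untreated resistant pair and 1.05 and 1.18 in the treated resistant pair. Its 4 groups did not overlap. Resistant cells exceeded parental ones by 3.31 log2 units off the drug (SE 0.359, adjusted p = 2.3e-08) and 2.88 on it (SE 0.255, adjusted p = 5.2e-10). The first of these was 4.13 without parental untreated replicate 1 and 2.80 without parental untreated replicate 2, and was called in both fits. The smallest count behind these values was 3 reads in a parental untreated library.

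IL6, the cytokine that signals through IL6R and gp130 to STAT3, was at 0.0548 and 0.0655 CPM in the untreated parental pair, 0.0934 and 0.0775 in the treated parental pair, 0.365 and 0.37 in the untreated resistant pair and 1.23 and 1.31 in the treated resistant pair. Parental libraries held 6 to 7 reads and resistant indisulam libraries 83 and 126. The ratio between lines was 6.1 off the drug (exact 95% interval 3.27 to 12.2) and 15.0 on it (8.57 to 28.6). IL6 overlaps STEAP1B on the opposite strand, which had 6 to 15 reads per library, and IL6-AS1, which had 0 to 8. The strand setting of the counting is not given in the sources used here, so reads of these partners could not be told apart with certainty. The resistant level of LIF exceeded the parental one by 1.46 log2 units off the drug (SE 0.0314, adjusted p = 1e-21) and 1.18 on it (SE 0.0323, adjusted p = 1.6e-19).

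CCL20, IL1A and IL6 reached the filter's level only in resistant groups, so those genes had to differ between the lines in order to be tested. IL1B reached it in both resistant groups and in parental indisulam cells, so it did not have to differ between the lines. No count over the 10 members is offered in evidence. CCL20, IL1A, IL1B and IL6 were each called higher in resistant cells, with adjusted p from 2.3e-08 to 0.01 off the drug and from 4.4e-12 to 3.4e-07 on it. The call of CCL20 off the drug was lost without parental untreated replicate 1 or resistant untreated replicate 2. Among genes with a mean under 1 CPM, 16.6% were called higher off the drug and 35.6% on it.

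**Figure D4:**
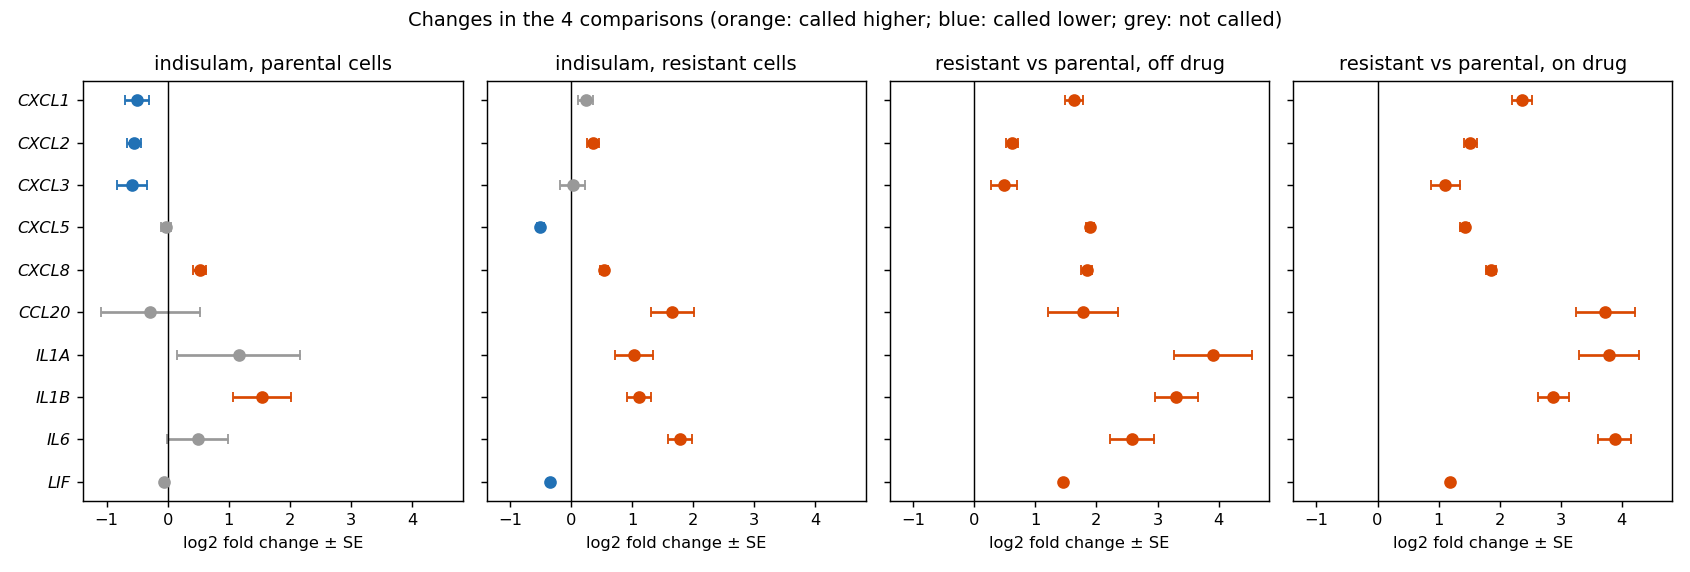
Log2 fold change (x axis, with SE bars from edgeR) of each member in the 4 comparisons, orange where called higher, blue where called lower and grey where not called. All points are orange in the 2 comparisons of the lines, from 0.49 for CXCL3 to 3.91 for IL1A, while the 2 drug comparisons hold points on both sides of 0.

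In parental cells, 18 h of indisulam moved the members in both directions. CXCL8 rose by 0.52 log2 units (SE 0.103, adjusted p = 0.00015) and IL1B by 1.54 (SE 0.479, adjusted p = 0.0083). CXCL1 changed by −0.50 (SE 0.194, adjusted p = 0.03), CXCL2 by −0.55 (SE 0.111, adjusted p = 0.00019) and CXCL3 by −0.59 (SE 0.246, adjusted p = 0.045). CXCL1, CXCL2 and CXCL3 were thus called lower while CXCL8 of the same cluster was called higher. The calls of CXCL1 and CXCL3 were less secure than that of CXCL2, and were lost in 5 of 17 and 7 of 16 alternative settings, among them the fits without parental untreated replicate 1 or parental indisulam replicate 1, and also without parental indisulam replicate 2 for CXCL1 and parental untreated replicate 2 for CXCL3. Over these settings the change lay between −0.63 and −0.37 for CXCL1 and between −0.87 and −0.39 for CXCL3. In all, 2 members were called higher, where 31.6% of all genes were, and 3 were called lower, where 26.6% were. The counts of members lie near these shares, and the rise of IL1B stands on 11 reads in the untreated and 23 in the treated pair. The read-rate ratio of IL1B was 2.97 (exact 95% interval 1.39 to 6.74), and the call was lost without parental untreated replicate 2, where the change was 1.03 log2 units, against 2.36 without parental untreated replicate 1.

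The remaining members were not called in parental cells. CXCL5 changed by −0.03 log2 units (95% interval −0.2 to 0.13) and LIF by −0.06 (−0.13 to 0.01), so a change of over 0.2 units in either direction lies outside both intervals. LIF was called lower in 7 of 17 alternative settings, 3 of which left out 1 library (parental indisulam replicate 1 or either resistant untreated replicate), with changes of −0.12 to −0.04 over all 17 and the smallest adjusted p, 0.0033, from library totals alone. For IL6 (0.49, interval −0.54 to 1.53), IL1A (1.16, −0.93 to 3.25) and CCL20 (−0.29, −1.96 to 1.39) a change of this size was not detectable at this depth. Without parental untreated replicate 1, which had the higher CXCL1 level, the change of CXCL1 was −0.37 and was not called.

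In resistant cells, the members that differed most between the groups on and off the drug were of low abundance. Large rises were more common at low abundance over all genes too. Calls of higher by over 1 log2 unit covered 11.5% of genes with a mean under 1 CPM and 0.113% of those at 10 CPM and over. IL6 was higher on the drug by 1.79 log2 units (SE 0.196, adjusted p = 5.3e-08), CCL20 by 1.66 (SE 0.358, adjusted p = 0.00044), IL1B by 1.11 (SE 0.197, adjusted p = 5.1e-05) and IL1A by 1.03 (SE 0.318, adjusted p = 0.009). CXCL8 rose by 0.54 (SE 0.0731, adjusted p = 1.2e-06) and CXCL2 by 0.36 (SE 0.0921, adjusted p = 0.0023). CXCL5 and LIF went the other way, with changes of −0.50 (SE 0.059, adjusted p = 1.7e-07) and −0.34 (SE 0.0304, adjusted p = 2.5e-09). The same 2 groups differed in markers of other cells, with fibroblast markers at 1.35 to 1.91 CPM off and 3.98 to 4.06 on the drug and leukocyte markers at 3.54 to 3.93 and 6.11 to 6.21 CPM. Of these markers, CSF1R, ITGAM and COL1A1 were called higher on the drug, ITGAM with averages of 0.523 CPM off and 1.04 on it. None was called lower, and DCN, LUM and PTPRC had 0 reads. The part of such cells in the result was not tested. The summed level of CCL20, IL1A, IL1B and IL6 was 1.28 and 1.17 CPM off the drug and 3.23 and 3.24 CPM on it.

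Of the 10 members, 6 were called higher in this comparison, where 24.9% of all genes were, and 2 were called lower, where 25.8% were. Among genes with a mean under 1 CPM, 18.7% were called higher. CCL20 reached the filter's level only in the resistant indisulam group and so had to differ in order to be tested. The counts of members are a description and are not offered in evidence. CXCL1 (0.24, 95% interval −0.02 to 0.49) and CXCL3 (0.03, −0.4 to 0.46) were not called. The call of IL1A was lost without resistant untreated replicate 2 (0.59) and without resistant indisulam replicate 1 (0.88), and the change was 1.76 without resistant untreated replicate 1.

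The responses of the lines to indisulam were compared directly by the difference between them, resistant minus parental. It was called for 4 members, where 50.1% of all genes were called. CXCL2 had fallen in parental and risen in resistant cells, a difference of 0.90 log2 units (SE 0.144, adjusted p = 1.6e-05). CXCL1 fell in parental cells and was not called in resistant ones, and its responses differed by 0.74 (SE 0.23, adjusted p = 0.01). That call was lost without parental untreated replicate 1, where the difference was 0.60. For CXCL5 the difference was −0.47 (SE 0.0997, adjusted p = 0.00039) and for LIF −0.28 (SE 0.0448, adjusted p = 1.8e-05), both lower on the drug in resistant cells and not called in parental ones.

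For CXCL8, which rose with drug in both lines, the difference was 0.03 log2 units with a 95% interval of −0.23 to 0.29. For IL6 (1.30, interval 0.14 to 2.46, adjusted p = 0.067) and CCL20 (1.95, interval 0.07 to 3.83, adjusted p = 0.079) the difference did not pass the threshold over all genes. The differences of CXCL3 (0.62, −0.05 to 1.28), IL1A (−0.13, −1.59 to 1.34) and IL1B (−0.43, −1.49 to 0.63) had intervals that included 0. Exposure lasted 18 h in parental cells and was continuous in resistant ones, so line and duration cannot be told apart in this comparison.

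**Figure D5:**
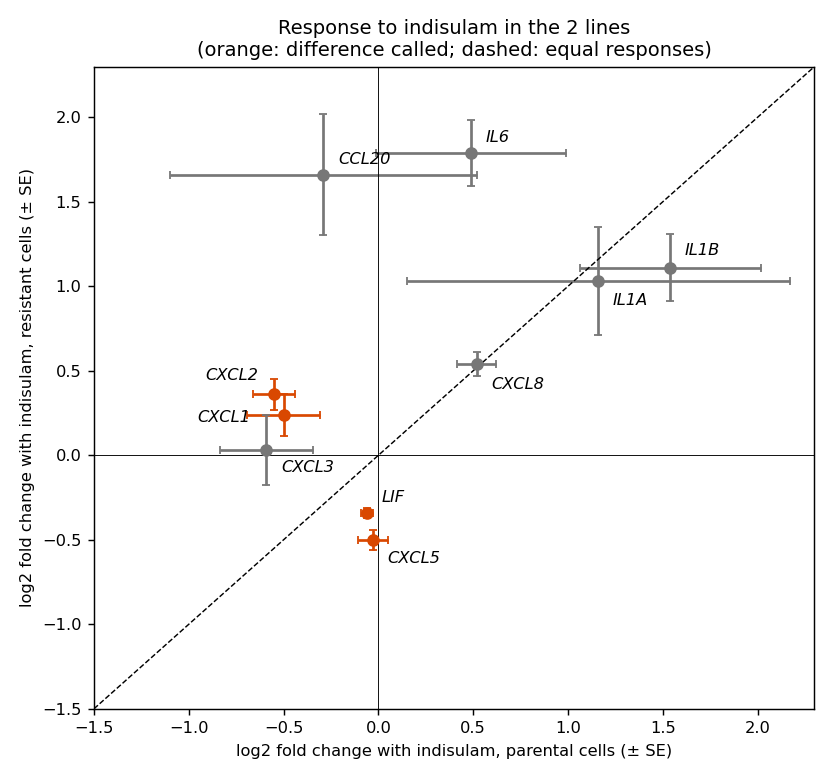
Log2 fold change with indisulam in parental cells (x axis) against that in resistant cells (y axis) for the 10 members, with SE bars, a dashed line where the responses are equal and orange points where the difference was called. CXCL1 and CXCL2 lie above the line and CXCL5 and LIF below it, while CXCL8 lies on it at 0.52 and 0.54.

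Receptors for the chemokine members had next to no reads in these cells. CXCR1, CXCR2, CCR6 and ACKR1 had at most 2 reads in any library and were not tested. Of 6 cytokine receptor genes tested, IL1R1 (0 to 1 reads per parental library) and IL1R2 (1 to 2) reached the filter's level in resistant libraries alone and so had to differ. Of the other 4, 3 were called higher and 1 lower in resistant cells off the drug, and 2 higher and 1 lower on it. LIFR, the ligand-binding LIF receptor chain, averaged 8.6 CPM in untreated and 10.8 in treated parental cells, and 12.7 in untreated and 20.2 in treated resistant cells. The lines differed in LIFR by 0.57 log2 units off the drug (SE 0.0551, adjusted p = 3.9e-09) and 0.91 on it (SE 0.0517, adjusted p = 1.6e-13). IL6R went the other way, by −0.61 without drug (adjusted p = 1.6e-11) and −0.45 with it (adjusted p = 9e-10). IL6ST, which encodes gp130, was abundant throughout (279 to 342 CPM on average), and IL1RAP, the accessory chain for interleukin-1, was higher in resistant cells by 0.56 off the drug (adjusted p = 2.2e-12). The signalling receptor IL1R1 averaged 0.138 CPM or less in every group, and IL1R2, a decoy receptor, 0.453 CPM or less.

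The lists that follow are read against the shares over all genes between the lines, 30.3% called higher and 29.9% lower off the drug and 34.6% and 34.9% on it. The transcripts of NF-κB itself moved little. Of the 5 subunits, 1 was higher and 1 lower between lines off the drug, and 1 was higher and 2 lower on it. NFKB1 averaged 120 CPM in untreated and 143 in treated parental cells, and 117 and 118 in resistant ones. RELA averaged 119 and 130 CPM in parental and 122 and 135 in resistant cells, untreated before treated. RELA did not pass the test between lines in either state (0.04 and 0.06 log2 units, adjusted p = 0.3 and 0.11), and RELB showed a difference of 0.11 off the drug (adjusted p = 0.039). Of the 10 inhibitors and feedback regulators, 6 were higher and 4 lower off the drug, and 6 higher and 2 lower on it. TNIP1, which encodes a binding partner of A20, exceeded its parental level by 1.33 off the drug (adjusted p = 2.3e-21). TNFAIP3, which encodes the deubiquitinase A20, rose by 0.71 with drug in resistant cells (adjusted p = 2.5e-13), and NFKBIA, the gene of IκBα, changed by −0.27 (adjusted p = 4.2e-07). NFKBIZ, which encodes the nuclear co-factor IκBζ, changed by −0.62 with drug in parental cells (adjusted p = 8.6e-09) and was higher by 1.45 in resistant cells on the drug (adjusted p = 1.9e-16). Its responses in the lines differed by 0.90 (adjusted p = 5e-09), the same size as for CXCL2.

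Of 12 kinases and adaptors of the pathway, 5 were higher and 3 lower off the drug, and 2 higher and 6 lower on it. MYD88, the adaptor of interleukin-1 and Toll-like receptors, exceeded its parental level by 1.15 without drug (adjusted p = 1.8e-18) and 0.66 with it (adjusted p = 1.8e-13). Of 11 other NF-κB target genes tested, 8 were higher and 2 lower off the drug, and 8 were higher and 1 lower on it. The matrix protease MMP9 had 3 to 7 reads per parental and 232 to 352 per resistant library, reached the filter's level in the latter alone and so had to differ, with a difference of 7.17 off the drug (adjusted p = 1.4e-18). Without MMP9 the median difference of these targets was 0.45 off and 0.49 on the drug. LCN2, which encodes the siderophore-binding lipocalin 2, changed by −1.73 with drug in resistant cells (adjusted p = 7.4e-11). That is opposite in direction to IL6 and CXCL8 and the same as CXCL5 and LIF.

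Other secreted inflammatory proteins were looked at beside the members. CXCL10, CXCL11 and CCL5, chemokines typical of interferon responses, were 3 of 3 higher in resistant cells off and on the drug, though CXCL10 (1 to 5 reads per parental library) and CXCL11 (1 to 9) reached the filter's level in resistant libraries alone and so had to differ. All 3 were lower on the drug than off it in resistant cells, opposite in direction to IL6, CCL20, IL1A and IL1B and the same as CXCL5 and LIF. CCL5 showed −0.61 there (adjusted p = 0.00048) and 4.17 between lines off the drug (adjusted p = 5.4e-15). CXCL9 had 0 reads. Of 8 other NF-κB-linked cytokines tested, 5 were higher and 3 lower off the drug, and 7 were higher and 0 lower on it. Of these, TNFSF10 also reached the filter's level in resistant libraries alone. LTB changed in opposite directions with drug in the lines, by −0.43 in parental (adjusted p = 1.6e-05) and 0.78 in resistant cells (adjusted p = 6.6e-09), as CXCL2 did. CSF1, the macrophage growth factor, exceeded its parental level by 1.62 off the drug (adjusted p = 6.4e-16). IL11 and CLCF1 of the interleukin-6 family were both higher in resistant cells in both states, IL11 by 1.17 (adjusted p = 5.1e-12) and 1.42 (adjusted p = 2.2e-13). Of 3 other interleukin-1 family genes tested, 2 were higher and 1 lower off the drug, with IL36RN at 0.58 (adjusted p = 1.1e-05) and IL18 at −0.20 (adjusted p = 0.0015).

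Of 8 tested genes that process and release interleukin-1, CASP1, NLRP1 and AIM2 reached the filter's level in resistant libraries alone (0 to 11 reads per parental library) and so had to differ. Of the other 5, 4 were called higher in resistant cells off the drug and 5 on it, with a median difference of 0.36 and 0.35 log2 units. For NLRP3, the inflammasome sensor, the difference was 2.54 without (adjusted p = 6.9e-15) and 2.63 with drug (adjusted p = 3.7e-16), and it also rose with drug in parental (0.73, adjusted p = 0.00024) and resistant cells (0.82, adjusted p = 4.5e-08), as IL1B did. PYCARD, the inflammasome adaptor, had 0 reads.

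The AP-1 and C/EBP transcription factors were split, 5 of 11 higher and 2 lower off the drug and 7 higher and 2 lower on it. CEBPB, an activator of IL6 and CXCL8, exceeded its parental level by 1.14 off the drug (adjusted p = 2.9e-16), and FOSB rose with drug in resistant cells by 1.34 (adjusted p = 8.8e-12). Of 11 regulators of the decay of unstable transcripts, 6 were higher and 4 lower off the drug and 5 higher and 4 lower on it. ZFP36, which encodes a protein that promotes decay of AU-rich transcripts, changed by −0.49 off the drug (adjusted p = 3.9e-05). DUSP1 rose with drug in resistant cells by 1.04 (adjusted p = 8.1e-15). Of 5 genes of the JAK-STAT branch below IL6 and LIF, 2 were higher and 3 lower off the drug and 2 higher and 2 lower on it, with STAT3 at 0.27 on the drug (adjusted p = 2.9e-08).

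The same lists were counted with against without drug within each line, where 31.6% of all genes were called higher and 26.6% lower in parental cells and 24.9% and 25.8% in resistant cells. Of the 27 NF-κB subunits, inhibitors, kinases and adaptors, 7 were higher and 5 lower in parental cells, and 10 higher and 7 lower in resistant cells. The other NF-κB targets gave 3 higher and 3 lower, and 3 and 4. Cytokine receptors gave 4 higher and 0 lower in parental and 4 and 1 in resistant cells. Of the other NF-κB-linked cytokines, 1 was higher and 1 lower in parental cells, while 5 were higher and 2 lower in resistant cells. The AP-1 and C/EBP factors gave 6 higher and 1 lower in parental and 7 and 0 in resistant cells. Decay regulators gave 6 and 3, then 4 and 2, JAK-STAT genes 3 and 2, then 4 and 0, and interleukin-1 processing genes 1 and 2, then 1 and 3. Of 2 other interleukin-6 family genes tested, CLCF1 was called higher in parental and IL11 in resistant cells, and 0 were lower. The other interleukin-1 family genes gave 2 higher and 0 lower in parental cells and 1 and 1 in resistant cells. The interferon-type chemokines gave 0 and 0, then 0 and 3. Apart from the interleukin-6 family, none of these lists had calls in a single direction in both lines.

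Profiles of the members over the 8 libraries were compared on the log2(CPM + 0.5) scale, as a description in which all points share their libraries and in which 4 groups set most of the spread. All 45 pairs of members had a Pearson r above 0, from 0.64 to 1.0 in rounded values, and 17 pairs were over 0.9. Among 8974 other protein-coding genes of ample expression, the profile nearest to CXCL5 was that of TGFBI (r = 0.9997), which averaged 25.5 and 25.7 CPM in untreated and treated parental cells and 445 and 217 CPM in untreated and treated resistant cells. NFKBIZ was nearest to CXCL2 (r = 0.9942). MUC1 was nearest to CXCL1 (r = 0.9989), TBC1D10A to CXCL3 (r = 0.9849) and B4GALT1 to CXCL8 (r = 0.9989). For the cytokines the nearest were DTX4 to LIF (r = 0.999), C12orf75 to IL6 (r = 0.9975), ZNF706 to IL1B (r = 0.9965), LGALS1 to CCL20 (r = 0.9943) and WDR54 to IL1A (r = 0.9865). Such values are common here, since 3.14% to 9.29% of the searched genes had an r over 0.9 with a given member.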

How the data were processed

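For each of the 8 libraries the authors deposited raw counts of reads per gene. Per the study's methods the libraries were stranded, from polyadenylated RNA, with paired reads trimmed by SeqPurge and aligned to GRCh38. The submitters' processing notes name HISAT2 2.2.1, Picard and HTSeq. The annotation release and strand setting of the counting are not given in the sources used here. Lines for reads outside genes (37.88% to 44.94% of reads) include duplicates (14.07% to 18.43%), so duplicates are not in the counts. Those lines were kept out of library sizes.

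GENCODE 44 gave symbols to 60419 of 60675 identifiers. edgeR 4.0.16 (R 4.3.3) was run on genes passing filterByExpr (16661), with TMM scaling and a robust quasi-likelihood fit of 4 group means over all 8 libraries, which leaves 4 residual degrees of freedom before moderation. Contrasts were indisulam within each line, resistant against parental in both drug states, and the difference between the responses. Adjusted p-values (Benjamini-Hochberg, threshold 0.05) are over all genes tested. SE is the log2 change divided by the square root of F. With 2 libraries against 2, the smallest two-sided p an exact permutation test can give is 0.333. Ratios of read rates carry exact 95% intervals for counting error only.

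Members, gene lists (115 symbols beside members and cell type markers, 95 tested) and tests were chosen with earlier results of these data known. Named genes are the members, NFKB1, RELA, RELB, NFKBIA, TNFAIP3 and the tested receptors. From every other list and comparison came at most the called gene that rose most and the one that fell most, given a mean of at least 1 CPM and no overlap of libraries. The nearest profile of each member was sought among protein-coding genes averaging at least 3 on the log2 CPM scale. A few genes outside this rule were named after their values were seen. They had 0 reads, lay near the CXC cluster, made up a list of 5 or fewer or were called among the cell type markers. Mean chi-square per gene between libraries of a group was 1.95 to 5.8, beyond counting noise, so none was counted as a repeat of another. Alternatives were DESeq2 1.42.0 size factors, its Wald test, plain library totals, no filter, a mean of at least 1 CPM, the compared groups alone, the replicate block, a test against 0.5 log2 units, removal of mitochondrial genes and the 10 most abundant ones, and omission of each library. The code was tested on simulated counts. Figures were drawn with matplotlib 3.10.9.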

Additional observations from a re-analysis of the deposited data

Results flagged for a closer look

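The responses of parental and resistant cells to indisulam differed beyond the threshold in 4 members, by a test of the difference itself. Of all genes tested, 50.1% were called by the same test, so this count does not set the members apart. The difference, resistant minus parental, was 0.74 log2 units for CXCL1 and 0.9 for CXCL2, and −0.47 for CXCL5 and −0.28 for LIF. CXCL1 and CXCL2 were called lower with drug in parental cells, and CXCL5 and LIF in resistant cells. The exposure times of the lines differed as well, and line and duration cannot be told apart.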

How the results depend on the processing

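At 2 libraries a group, and with at most 41 reads per library for CCL20 and IL1A, small changes of the rarest members were not detectable. Testing against 0.5 log2 units left 0 members called in parental cells (5 against no change), 3 in resistant cells (8) and 1 for the difference of responses (4). With a mean of at least 1 CPM only 5 members were tested, and 4, 5 and 5 were called in the resistant, off-drug and on-drug comparisons. The DESeq2 Wald test called 3 members in parental cells. The count with 1 library left out was 3 to 6 in parental cells (3 without parental untreated replicate 1 or 2), 7 to 8 in resistant cells, 8 to 10 off the drug, 10 on it and 3 to 4 for the difference. The numbers in the titles did not pair the samples (correlations of deviations −0.058 to 0.0272), and with the replicate block 4, 8, 9, 10 and 4 members were called. Library totals alone shifted the median difference of responses over all genes from 0.01 to 0.125 log2 units. Signs reversed only in changes that were called in neither setting. With 1 library left out, CXCL3 in resistant cells ran from −0.049 to 0.096, and the difference of responses from −0.033 to 0.139 for CXCL8, from −0.652 to 0.619 for IL1A and from −1.253 to 0.08 for IL1B. The turns in sign came without resistant untreated replicate 1 or resistant indisulam replicate 1 for CXCL3, without replicate 2 of either untreated group for CXCL8, without any 1 of 4 libraries for IL1A and without parental untreated replicate 2 for IL1B. CCL20 off the drug lost its call without parental untreated replicate 1, without resistant untreated replicate 2 and in DESeq2, and CXCL1 lost both its parental call and its difference of responses in DESeq2. LIF gained a call in parental cells in 7 of 17 settings. The cause was not tested.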
